A study of Mus musculus with 20 samples.

Results

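The mitotic spindle and kinetochore genes are 39 genes that a dividing cell uses to line up and separate its chromosomes. They were listed by symbol, and the choice was made with earlier results of these data known. Every probe whose platform symbol is a listed gene was taken if its detection P-value was below 0.05 on at least 3 of the 20 arrays. Of the 39 genes, 37 have a probe in the platform annotation and 29 have at least 1 probe that passed, with 53 of 74 probes passing, against 23148 of 45281 probes and 12310 genes in the whole table. Mki67 and Ccnb1 have no probe there and are not analysed here. Another 8 genes (Ccnb2, Bub1, Ttk, Kif20a, Cenpe, Nuf2, Racgap1 and Hmmr) have probes of which none passed. Just inside the threshold lay Ccna2 and a dim probe of Cenpf, each detected on 3 arrays, and just outside it Cenpe and a dim probe of Ndc80, each detected on 1 array.

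The arrays carried RNA of knee articular cartilage of male mice on the C57Bl/6 background, 4 to 6 months old, either wild-type or Dio2-/-, the latter in the 6th backcross generation and lacking the deiodinase that activates thyroid hormone. Run mice had been made to run on a treadmill 1 hour a day on 5 days a week for 3 weeks, at 11 m/min and an incline of 5 degrees, and NoRun mice had not. Wild-type mice gave 3 NoRun and 8 Run arrays and Dio2-/- mice 3 NoRun and 6 Run arrays, each hybridized with RNA pooled from 2 mice of a group, and all P-values therefore rest on how much such pools vary. The methods name a supplier for the wild-type animals and elsewhere call all mice littermates, so that origin and genotype cannot be told apart here.

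The arrays lay on 6 chips, and chip and group were partly tied. All wild-type NoRun arrays shared chip 4 with Dio2-/- Run 35, and the Dio2-/- NoRun arrays lay alone on chip 5. Genotype in NoRun mice, running in Dio2-/- mice and the interaction of genotype and running therefore cannot be told apart from chip. Between 18469 and 21386 probes were detected per array. The cartilage genes Col2a1 and Acan were detected on all 20 arrays, as were genes of marrow granulocytes, red cell precursors and skeletal muscle. Dio2-/- NoRun 16 and Dio2-/- Run 24 stood apart by low granulocyte signals, and results that rest on them are given with and without them. Of 2 Dio2 probes, 1 was detected on no array and the other on 2 arrays of the wild type (11 in all) and 7 of the knockout (9 in all). Where these probes lie relative to the deletion is not known here, so that they check nothing about the labels.

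At the entry into mitosis, Cdk1 with cyclins A and B phosphorylates a great many proteins, and the kinases Aurka, Plk1 and Aurkb drive the building of the spindle. Microtubules attach to each chromosome at the kinetochore, which the Ndc80 complex builds on centromeres marked by the histone variant Cenpa. Unattached kinetochores hold back Cdc20 through Bub1b, and once all are attached Cdc20 and Ube2c direct the breakdown of cyclin B, after which motors and the midzone proteins Prc1 and Kif23 complete division. Adult articular chondrocytes rarely divide, whereas the marrow precursors of granulocytes and red cells divide often.

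The promoters of many such genes share short elements, the CCAAT box, which NF-Y binds, and the cell cycle genes homology region with the letters TTTGAA or TTCGAA, through which the DREAM and B-Myb complexes act. In the 200 bases before the RefSeq start (GRCm38.p6), on both strands and with overlaps counted, 18 of the 25 tested members with a promoter in the table held CCAAT (72%), against 30% of 27025 genes. At least 2 CCAAT were found in 12 of the 25 (48%, against 8.41% of all genes), TTTGAA in 9 (36% against 12.7%) and TTCGAA in 2 (8% against 1% of all genes). Both kinds of element stood in 8 of the 25 (32% against 4.17%). Aurkb, Ccna2, Spc24 and Tpx2 had no entry. The windows printed here are those of the genes on which the results turn: Cdk1, whose level followed that of the other members closely, Birc5, Cdca8, Cenpa and Aurka, whose values in running wild-type mice are described further on although none passed the adjusted threshold, and Ube2c, which passed it between chips. Capitals mark a CCAAT box or a homology region with its letters TTTGAA or TTCGAA in either orientation. A CCAAT box on the opposite strand is printed as ATTGG. Each line runs 5′ to 3′ on the strand of the gene, up to the base before the start.
Cdk1: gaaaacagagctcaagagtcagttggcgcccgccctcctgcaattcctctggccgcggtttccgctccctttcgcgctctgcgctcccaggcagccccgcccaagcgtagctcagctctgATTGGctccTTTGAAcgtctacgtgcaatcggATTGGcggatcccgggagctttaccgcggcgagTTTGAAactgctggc
Birc5: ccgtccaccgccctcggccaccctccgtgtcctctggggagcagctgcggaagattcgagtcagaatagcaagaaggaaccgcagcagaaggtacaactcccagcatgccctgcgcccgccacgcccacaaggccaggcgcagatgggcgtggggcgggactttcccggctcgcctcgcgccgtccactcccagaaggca
Cdca8: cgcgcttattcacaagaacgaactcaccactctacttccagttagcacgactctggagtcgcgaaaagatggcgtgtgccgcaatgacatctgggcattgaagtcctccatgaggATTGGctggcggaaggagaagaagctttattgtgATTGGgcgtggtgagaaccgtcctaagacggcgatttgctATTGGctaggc
Cenpa: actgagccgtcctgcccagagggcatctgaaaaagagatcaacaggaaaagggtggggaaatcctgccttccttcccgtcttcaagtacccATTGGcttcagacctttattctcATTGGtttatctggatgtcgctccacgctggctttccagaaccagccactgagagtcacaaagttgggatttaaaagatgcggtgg
Aurka: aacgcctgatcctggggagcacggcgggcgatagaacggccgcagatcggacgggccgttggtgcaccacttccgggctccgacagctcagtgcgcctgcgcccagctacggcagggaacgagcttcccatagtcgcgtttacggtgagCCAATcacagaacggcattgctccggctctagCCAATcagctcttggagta
Ube2c: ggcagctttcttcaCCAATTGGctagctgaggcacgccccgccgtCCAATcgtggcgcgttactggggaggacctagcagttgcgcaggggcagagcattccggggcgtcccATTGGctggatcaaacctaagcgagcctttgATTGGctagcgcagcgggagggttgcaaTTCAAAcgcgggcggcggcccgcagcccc
They lie at chr10:69352913-69353112 (minus strand), chr11:117849037-117849236 (plus strand), chr4:124936918-124937117 (minus strand), chr5:30666686-30666885 (plus strand), chr2:172370571-172370770 (minus strand) and chr2:164769729-164769928 (plus strand). Cdk1 carries 2 CCAAT and 2 TTTGAA, Ube2c 5 CCAAT, of which a pair overlaps, and 1 TTTGAA, Cdca8 3 CCAAT, and Cenpa and Aurka 2 CCAAT each, while the letters searched for do not occur in the window of Birc5. A match is a description of the letters and not a bound site.

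Of the 29 tested genes, 26 were detected on all 20 arrays by their brightest probe. Ccna2 was detected on 3 arrays, Ect2 on 9 and Ube2c on 12, and these 3 genes lay near background, where differences are understated. In bulk tissue, a change in the number of dividing cells and a change in RNA per cell cannot be told apart. The mean log2 intensity of the 29 genes was 10.35 to 10.38 on the 3 wild-type NoRun arrays, 10.35 to 10.65 (median 10.52) on the 8 wild-type Run arrays, 10.31, 10.54 and 10.69 on the Dio2-/- NoRun arrays and 10.16 to 10.82 (median 10.37) on the Dio2-/- Run arrays. The wild-type NoRun arrays were therefore tightly placed (SD 0.017, n = 3), and the Dio2-/- Run arrays were the most widely spread (SD 0.22, n = 6), holding both the lowest array (Dio2-/- Run 24) and the highest (Dio2-/- Run 35).

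**Figure D1:**
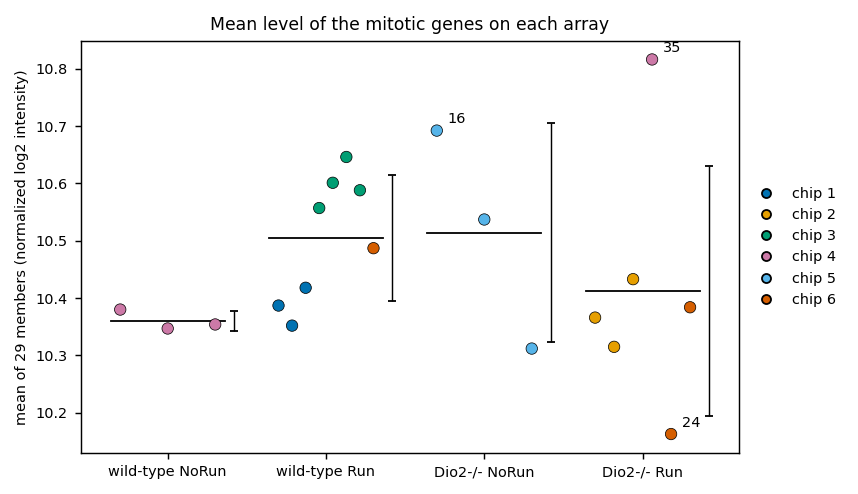
Mean normalized log2 intensity of the 29 tested mitotic genes (y axis) on each of the 20 arrays, by group (x axis) and coloured by chip; horizontal lines are group means and the bars beside them 1 SD. The 4 wild-type Run arrays of chip 3 (10.56 to 10.65) lie above the 3 on chip 1 (10.35 to 10.42), and Dio2-/- Run 35 on chip 4 is the highest array at 10.82.

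By role, the 6 genes grouped as chromosomal passenger and chromosome structure were Aurkb, Birc5, Cdca3, Cdca5, Cdca8 and Top2a. Cdca3 was counted here although it is a trigger of mitotic entry, and the mean without it was not taken. The mean of the 6 was 11.63 to 11.81 on the wild-type NoRun and 11.90 to 12.05 on the wild-type Run arrays, and these ranges did not overlap. By brightest probe, Birc5 and Cdca3 were the genes of this role whose wild-type groups did not overlap. The 5 kinetochore and centromere genes read 9.74 to 9.92 and 9.60 to 10.11 in the same groups, and the 6 motors and microtubule-binding proteins 10.39 to 10.58 and 10.45 to 10.82. The cyclins and kinases of mitotic entry (9.32 to 9.43 and 9.25 to 9.66), the checkpoint and anaphase genes (9.64 to 9.72 and 9.68 to 10.06) and the midzone genes (10.41 to 10.70 and 10.53 to 11.01) completed the roles, so that the wild-type groups overlapped in 5 of the 6. In Dio2-/- mice, NoRun and Run arrays overlapped for the passenger and chromosome structure genes too, with 11.76 to 11.98 and 11.54 to 12.36.

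The study re-analysed these arrays for genes that differ by genotype whatever the running, and its groups also allow Run and NoRun to be compared within each genotype. For running in the wild type, no member probe passed an adjusted P-value of 0.05 in limma's test (Benjamini-Hochberg over all tested probes), where 0.194% of all probes did. At an unadjusted P below 0.05, 14 of the 53 member probes (26.4%) were higher in Run and 2 (3.77%) lower, against 6.97% and 6.21% of all probes; the 14 probes belong to fewer genes, and probes of a gene are not independent. By their brightest probes, 22 of 29 genes were higher and 7 lower in Run, with a median log2 difference of 0.21 against 0.012 over all tested probes. Without Dio2-/- NoRun 16 and Dio2-/- Run 24, which enter only the estimate of spread, 6 member probes passed the adjusted threshold (3.93% of all probes), 3 of Birc5 and 1 each of Cdc20 and Spc24 higher and that of Aurka lower in Run. The called probes of Cdc20 (1.02) and Spc24 (0.68) are not the brightest of their genes, whose brightest probes gave 0.25 and -0.20, so that the differences of the Spc24 probes had opposite signs.

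Birc5, which encodes survivin, the subunit that places the chromosomal passenger complex on centromeres, had the smallest P-value of the members. Its brightest probe read 13.15, 13.02 and 13.04 on the wild-type NoRun arrays and 13.42 to 13.63 (median 13.48) on the wild-type Run arrays. All 8 Run arrays lay above all 3 NoRun arrays, with a difference of 0.43 on the log2 scale (SE 0.12, adjusted P = 0.106 in limma), a 1.35-fold level. The Birc5 probe with the smallest P read 12.15, 12.04 and 11.66 in NoRun and 12.49 to 12.84 (median 12.57) in Run, again without overlap (difference 0.65, SE 0.17, adjusted P = 0.106 in limma). The third probe gave 0.54 (SE 0.15, adjusted P = 0.129 in limma), and both correlated with the brightest across the 20 arrays (Pearson r 0.93 and 0.90), so that the 3 probes ran together.

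Cdca8, which encodes borealin of the same passenger complex, read 12.29, 12.16 and 12.59 in wild-type NoRun and 12.40 to 13.09 (median 12.76) in wild-type Run samples, with a difference of 0.43 (SE 0.16, adjusted P = 0.245 in limma). The groups overlapped through 1 NoRun array. Aurkb, the kinase of that complex, read 10.44, 10.33 and 10.29 in NoRun and 9.97 to 10.73 (median 10.33) in Run, and its difference of -0.0066 had a 95% interval from -0.41 to 0.40. Birc5 and Cdca8 thus had the same difference and Aurkb one near 0, and whether the subunits differ from each other was not tested.

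Cenpa read 14.30, 14.31 and 14.27 in wild-type NoRun and 14.44 to 14.65 (median 14.52) in wild-type Run samples. Its groups did not overlap, and the difference was 0.24 (SE 0.11, adjusted P = 0.34 in limma). Cdca3, a trigger of mitotic entry, and Melk, a kinase of dividing progenitors, also had all 8 Run arrays above all 3 NoRun arrays. Their differences were 0.29 and 0.53. The other tested probes of Melk had the opposite sign (-0.15 and -0.16), so that the placement of Melk holds for its brightest probe only. By brightest probe, 4 of 29 members were placed so, and 12 of the 53 member probes, against 4.48% of all tested probes. The motor Kif4 differed by 0.32 (SE 0.12, adjusted P = 0.277 in limma).

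Aurka, the kinase of the spindle poles, ran the other way. It read 11.62, 11.46 and 11.62 in wild-type NoRun and 10.67 to 11.39 (median 11.01) in wild-type Run samples, with a difference of -0.55 (SE 0.22, adjusted P = 0.28 in limma). It was the only member with all Run arrays below all NoRun arrays, a placement found for 3.41% of all probes. Cdk1, the central mitotic kinase, read 12.42, 12.24 and 12.04 in NoRun and 11.71 to 12.46 (median 12.17) in Run, with a difference of -0.10 (95% interval -0.50 to 0.29).

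Among the other genes read in every sample, Plk1 read 11.26, 11.09 and 11.63 in wild-type NoRun and 11.27 to 11.76 (median 11.54) in wild-type Run samples. Bub1b, the checkpoint kinase-like protein, read 11.58, 11.63 and 11.54 in NoRun and 11.56 to 11.87 (median 11.66) in Run. Cdc20, the activator of the anaphase-promoting complex, read 11.90, 11.79 and 12.10 in NoRun and 11.99 to 12.38 (median 12.19) in Run. In these 3 genes the groups overlapped, and the differences were 0.19, 0.10 and 0.25.

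Top2a, the topoisomerase that untangles sister chromatids, read 12.14, 11.88 and 11.69 in wild-type NoRun and 11.81 to 12.34 (median 12.13) in wild-type Run samples. Ndc80, the microtubule-binding subunit of the outer kinetochore, read 9.65, 9.63 and 9.63 in NoRun and 9.26 to 9.79 (median 9.47) in Run. Kif11, the motor that pushes spindle poles apart, read 11.45, 11.41 and 11.26 in NoRun and 11.16 to 11.46 (median 11.30) in Run. Their 95% intervals reached from -0.12 to 0.54, from -0.44 to 0.24 and from -0.31 to 0.20, so that none of the 3 excluded 0.

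**Figure D2:**
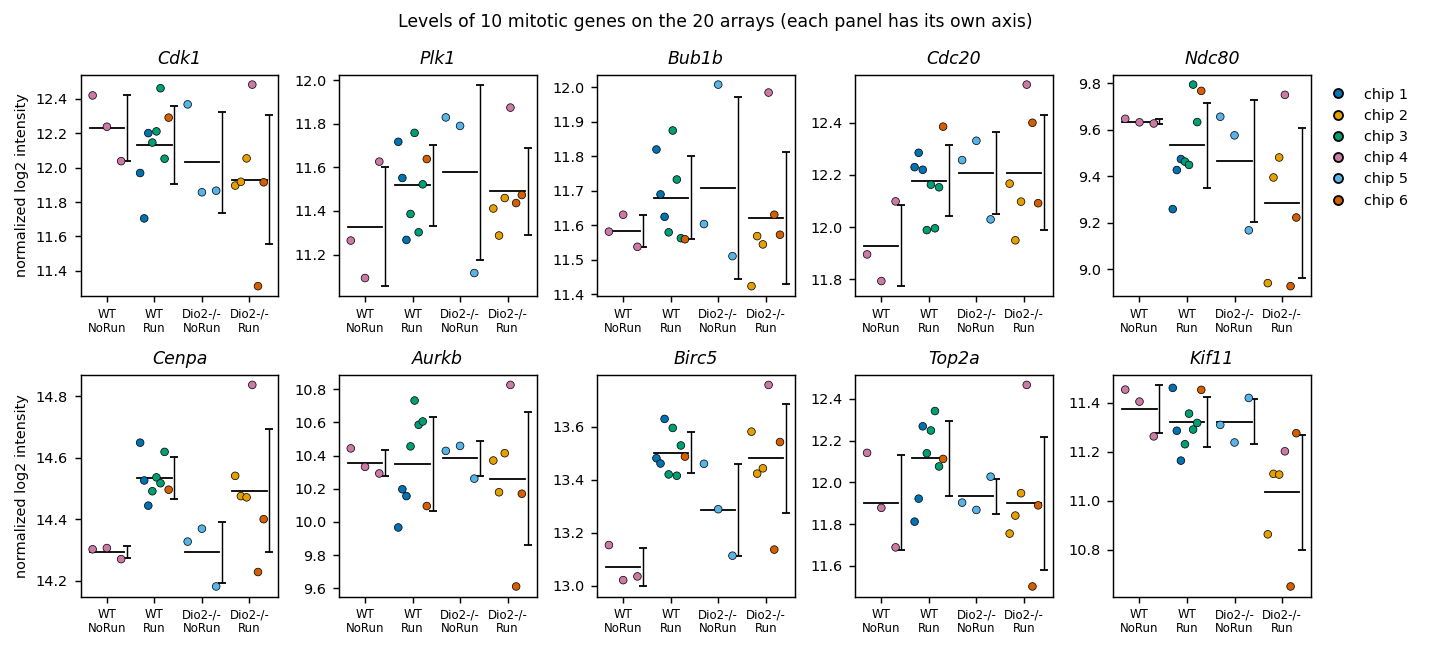
Normalized log2 intensity (y axis, a scale of its own in each panel) of 10 mitotic genes on the 20 arrays, by group (x axis) and coloured by chip; horizontal lines are group means and the bars beside them 1 SD. For Birc5 and Cenpa the 8 wild-type Run arrays (from 13.42 and from 14.44) lie above the 3 wild-type NoRun arrays (up to 13.15 and 14.31), while for Cdk1, Aurkb and Kif11 the wild-type groups overlap.

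All wild-type NoRun arrays lay on chip 4 and no wild-type Run array did, so that within the wild type running and chip cannot be told apart. The array that shares chip 4 with them is Dio2-/- Run 35, which differs in genotype as well. Birc5 read 13.76 on it and Cenpa 14.84, each above the 3 wild-type NoRun arrays of that chip. Of the 29 members, 25 were higher on Dio2-/- Run 35 than the mean of those 3 arrays, with a median difference of 0.54 against 0.022 over all tested probes. On chip 6, the 2 Dio2-/- Run arrays were lower than the 1 wild-type Run array in 23 of 29 members, with a median of -0.18 against -0.0054 over all probes. With chip as a fixed block, which ties the wild-type groups only through Dio2-/- Run 35 and chip 6, the median member difference for running in the wild type became 0.73.

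Among wild-type Run arrays, 4 lay on chip 3 and 3 on chip 1, and their comparison was added after seeing the data. The chips held pools of different mice, so that chip and mice cannot be told apart. Signal also differed: the median intensity before normalization was 162.3 to 168.4 on chip 1 and 180.2 to 190.4 on chip 3. Probes detected numbered 19662 to 19954 on chip 1 and 20302 to 21386 on chip 3, and member probes detected 47 to 49 and 51. The part of this in the differences of dim probes between the chips was not tested. On chip 3, 19 of 29 members were higher, with a median of 0.13 against -0.029 over all probes. Of the 53 member probes 11 (20.8%) were higher at an unadjusted P below 0.05 and 0 lower, against 7.91% and 4.26% of all probes. The only member past the adjusted threshold, where 1.47% of all probes passed, was Ube2c, the ubiquitin-conjugating enzyme of the anaphase-promoting complex, with adjusted P = 0.0377 in limma. It read 6.42, 5.83, 6.09 and 6.46 on chip 3, where it was detected on 4 of 4 arrays, and 5.10, 5.20 and 5.21 on chip 1, where it was detected on 0 of 3. Set against the lowest detected signal of the chip 1 arrays, it was at least 1.46-fold higher on chip 3. Its call was lost when any of 6 of these 7 arrays was left out and kept without wild-type Run 21.

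Tpx2, which activates Aurka on the spindle, read 7.27, 7.17, 7.59 and 7.18 on chip 3 and 6.31, 6.28 and 6.05 on chip 1. Spc25, a subunit of the Ndc80 complex, read 8.97, 8.79, 9.53 and 9.15 on chip 3 and 7.88, 8.16 and 8.57 on chip 1. Nusap1, which bundles spindle microtubules, read 11.24, 11.22, 11.75 and 11.59 on chip 3 and 10.50, 10.61 and 10.81 on chip 1. By brightest probe, 7 of 29 members (Anln, Aurkb, Ect2, Nusap1, Spc25, Tpx2 and Ube2c) had all chip 3 arrays above all chip 1 arrays and 2 (Cdc20 and Cdca8) all below. Over the 53 member probes these were 11 and 5, against 9.47% and 7.95% of all probes. Tpx2, Spc25 and Nusap1 had differences of 1.09, 0.91 and 0.81 and adjusted P-values of 0.148, 0.119 and 0.127 in limma. Outside the members, the S phase genes Pcna (1.41, detected on 19 arrays) and Cdc6 (1.01) passed the adjusted threshold and were higher on chip 3. The spindle gene Aspm (1.20, detected on 18 arrays) and the cohesin genes Smc3 (1.09, detected on 17) and Stag1 (0.99) did so too. So did the Cdk subunit Cks2 (0.84, detected on 16 arrays) and Ccng2 (1.57), which is on the list of cell cycle brakes. Birc5 (-0.034) and Cenpa did not follow that order, Cenpa reading 14.49 to 14.62 on chip 3 and 14.44 to 14.65 on chip 1.

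For running in Dio2-/- mice, with every array in the fit, none of the 53 member probes passed the adjusted threshold, as 0.134% of all probes did, and at an unadjusted P below 0.05 there were 2 higher (3.77%) and 8 lower (15.1%), against 9.72% and 9.5% of all probes. By brightest probes, 11 of 29 members were higher and 18 lower in Run, with a median of -0.10 against 0.021 over all tested probes. This median was -0.0031 without Dio2-/- NoRun 16 and -0.19 without Dio2-/- NoRun 19, and array weights turned it to 0.079. No member had all Dio2-/- Run arrays above all NoRun arrays, as 2.35% of probes did, and 1, the barely detected Ccna2, had all below, as 2.05% of probes did.

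Melk had the smallest P-value among the brightest probes. It read 6.09, 6.05 and 6.19 on the Dio2-/- NoRun arrays and 5.69 to 7.43 (median 6.95) on the Dio2-/- Run arrays, with a difference of 0.74 (SE 0.25, adjusted P = 0.136 in limma). The lowest Run value was that of Dio2-/- Run 24, and the other 5 Run arrays lay above all 3 NoRun arrays. Without Dio2-/- NoRun 16 and Dio2-/- Run 24, Melk was the 1 member probe called (0.92% of all probes). The other probes of Melk hardly followed the brightest (Pearson r 0.11 and 0.046 over 20 arrays).

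Among all 53 member probes the smallest P-value in Dio2-/- mice was that of a dim probe of Prc1, the protein that crosslinks microtubules in the midzone, detected on 8 arrays. It read 7.67, 6.13 and 6.01 in Dio2-/- NoRun and 4.98 to 6.43 (median 5.08) in Dio2-/- Run samples, the highest being Dio2-/- NoRun 16 (difference -1.19, SE 0.34, adjusted P = 0.088 in limma). The brightest Prc1 probe gave -0.14 (SE 0.15) for the same comparison. Birc5 read 13.46, 13.29 and 13.11 in NoRun and 13.14 to 13.76 (median 13.49) in Run, with a difference of 0.19 (95% interval -0.06 to 0.44). Cenpa read 14.33, 14.37 and 14.18 in NoRun and 14.23 to 14.84 (median 14.47) in Run, with a difference of 0.20 (95% interval -0.03 to 0.43). Aurka read 12.12, 11.04 and 10.80 in NoRun, the highest again on Dio2-/- NoRun 16, and 10.49 to 11.20 (median 10.73) in Run, with a difference of -0.51 (SE 0.23, adjusted P = 0.236 in limma).

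Of the other members read in each sample, Cdk1 read 12.37, 11.86 and 11.87 in Dio2-/- NoRun and 11.31 to 12.48 (median 11.92) in Dio2-/- Run samples. Plk1 read 11.83, 11.79 and 11.11 in NoRun and 11.29 to 11.87 (median 11.45) in Run. Aurkb read 10.43, 10.46 and 10.26 in NoRun and 9.61 to 10.83 (median 10.27) in Run. The groups overlapped for these 3 kinases, and Dio2-/- Run 35 was the highest Run array for each of them.

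Bub1b read 11.60, 12.01 and 11.51 in Dio2-/- NoRun and 11.42 to 11.98 (median 11.57) in Dio2-/- Run samples. Cdc20 read 12.26, 12.33 and 12.03 in NoRun and 11.95 to 12.55 (median 12.13) in Run. Top2a read 11.90, 11.87 and 12.03 in NoRun and 11.50 to 12.47 (median 11.87) in Run. The groups overlapped in these 3 genes too. Ndc80 read 9.66, 9.58 and 9.17 in NoRun and 8.93 to 9.75 (median 9.31) in Run, and Kif11 11.31, 11.24 and 11.42 in NoRun and 10.65 to 11.28 (median 11.11) in Run.

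**Figure D3:**
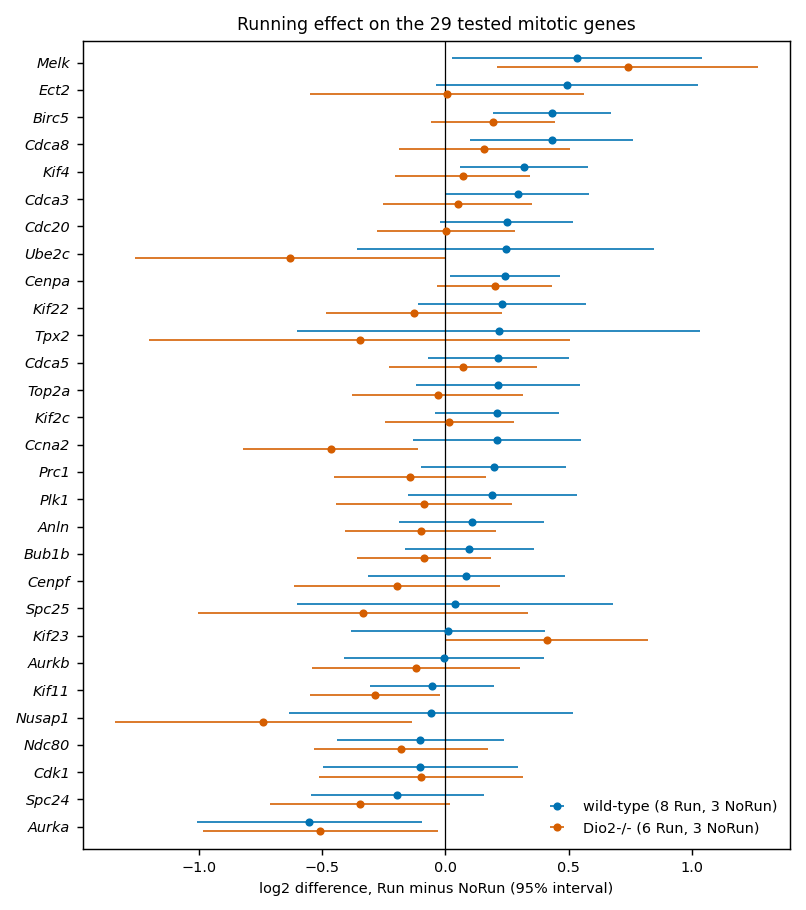
Log2 difference of Run minus NoRun (x axis, points) with its 95% interval (lines) for each of the 29 tested mitotic genes (y axis), in wild-type mice (8 Run and 3 NoRun arrays) and Dio2-/- mice (6 Run and 3 NoRun arrays). In wild-type mice 22 of 29 points lie above 0 and in Dio2-/- mice 11, and Birc5 has 0.43 in wild-type and 0.19 in Dio2-/- mice.

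Whether the running effect differed between genotypes was tested as an interaction. No member probe passed the adjusted threshold, as no probe of the table did (0%), and at an unadjusted P below 0.05 there were 0 higher and 3 lower (5.66%), against 2.64% and 2.49% of all probes. The interaction term, the Run minus NoRun difference in Dio2-/- mice less that in the wild type, was negative in 25 of 29 members, with a median of -0.24 against 0.0057 over all probes. The smallest P-value was that of Ccna2 (adjusted P = 0.929 in limma), detected on 2 wild-type Run arrays and 1 Dio2-/- NoRun array only, and the difference for Birc5 was -0.24 (95% interval -0.59 to 0.11). Dio2-/- NoRun 16 and Dio2-/- Run 24 bear on this comparison, and without them the median was -0.14.

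For genotype, with running in the model, 0 of the 53 member probes passed the adjusted threshold (0.00432% of all probes), and 0 were higher and 3 lower (5.66%) at an unadjusted P below 0.05, against 7.19% and 7.11% of all probes. By brightest probes 15 of 29 members were higher and 14 lower in Dio2-/- mice, with a median of 0.013 against -0.0023 over all probes. The smallest P-value was that of a probe of Kif23, the centralspindlin motor of the midzone, with a difference of -0.31 (SE 0.10, adjusted P = 0.237 in limma). That probe read 12.10, 11.82 and 11.93 in wild-type NoRun, 11.44 to 11.97 (median 11.55) in wild-type Run, 11.99, 11.29 and 11.27 in Dio2-/- NoRun and 11.17 to 11.63 (median 11.33) in Dio2-/- Run samples. The brightest Kif23 probe did not follow it (r 0.0074 over 20 arrays) and gave -0.035.

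In NoRun mice, 0 of 53 member probes passed the adjusted threshold (0.0432% of all probes), with 4 higher (7.55%) and 1 lower (1.89%) at an unadjusted P below 0.05, against 4.64% and 5.75% of all probes. The median difference over 29 members was 0.17 against 0.0064 over all probes, and 21 of 29 were higher in Dio2-/- mice. This median was 0.12 without Dio2-/- NoRun 16, 0.28 without Dio2-/- NoRun 19 and -0.015 with array weights. The NoRun groups shared no chip, so that genotype and chip cannot be told apart in this comparison. The smallest P-value was that of Ccna2, detected on none of the 3 wild-type NoRun arrays and on 1 of the 3 Dio2-/- NoRun arrays. In Run mice, 0 member probes passed (0% of all probes), with 0 higher and 2 lower (3.77%) at an unadjusted P below 0.05, against 4.33% and 3.84% of all probes, and the median was -0.062 against -0.0061 over all probes, or -0.017 without Dio2-/- Run 24 and -0.13 without Dio2-/- Run 35. The smallest P-value there was that of Kif11 (-0.29, SE 0.10, adjusted P = 0.492 in limma). Kif11 read 11.16 to 11.46 on the wild-type Run and 10.65 to 11.28 on the Dio2-/- Run arrays, and the ranges overlapped.

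Marrow signal was followed through Mpo, the myeloperoxidase of granulocyte precursors, and through Elane, Prtn3, Ctsg and Ms4a3 of the same cells. Mpo read 14.26 on Dio2-/- NoRun 16 and 15.52 to 15.98 on the other 19 arrays, so that nearly all of its variation lay in 1 array. Elane, the neutrophil elastase gene, read 12.18 on Dio2-/- NoRun 16, 13.55 on Dio2-/- Run 24 and 14.70 to 15.45 on the other 18. All 5 genes were lower on Dio2-/- NoRun 16 than on the other arrays of its group, with a median difference of -2.76 on the log2 scale, and 8 of 8 genes of late granulocytes were lower there as well. The mitotic genes did not share this: 25 of 29 were higher on Dio2-/- NoRun 16 than on the other 2 arrays of its group, with a median of 0.21 against 0.0091 over all probes. On that array, 6 of 7 erythroid genes (median 0.79) and 10 of 10 skeletal muscle genes (median 0.73) were higher too. So were 8 of 10 cartilage genes (0.52) and 6 of 6 endothelial genes (0.44). Lower there were 5 of 6 B lineage genes (-2.25), 5 of 6 monocyte and macrophage genes (-1.01) and 7 of 8 osteoblast and osteocyte genes (-1.02). Of 24 other spindle and cytokinesis genes 18 were higher (0.24), while 24 other kinetochore and checkpoint genes split into 12 higher and 12 lower (-0.0011). Of 18 other genes of mitotic entry and exit 14 were higher (0.33), and of 10 cell cycle brakes 8 (0.38). The part of these tissues in the mitotic values was not tested.

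Dio2-/- Run 24, the other array with low granulocyte signals, went the other way for the mitotic genes. Its early granulocyte genes were lower too (5 of 5, median difference -1.54), and 22 of 29 mitotic genes were lower, with a median of -0.26 against 0.0035 over all probes. Cdk1 read 11.31, Aurkb 9.61 and Melk 5.69 there, each the lowest of the 20 arrays. Erythroid genes on this array were at a median difference of 0.03 from the other arrays of its group, while 10 of 10 skeletal muscle genes (median 0.74), 9 of 10 cartilage genes (0.53) and 6 of 6 endothelial genes (0.51) were higher. The part of these tissues in the mitotic values of the array was not tested. The 2 arrays with the lowest granulocyte signals thus held 1 of the highest and the lowest mean of the mitotic genes.

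**Figure D4:**
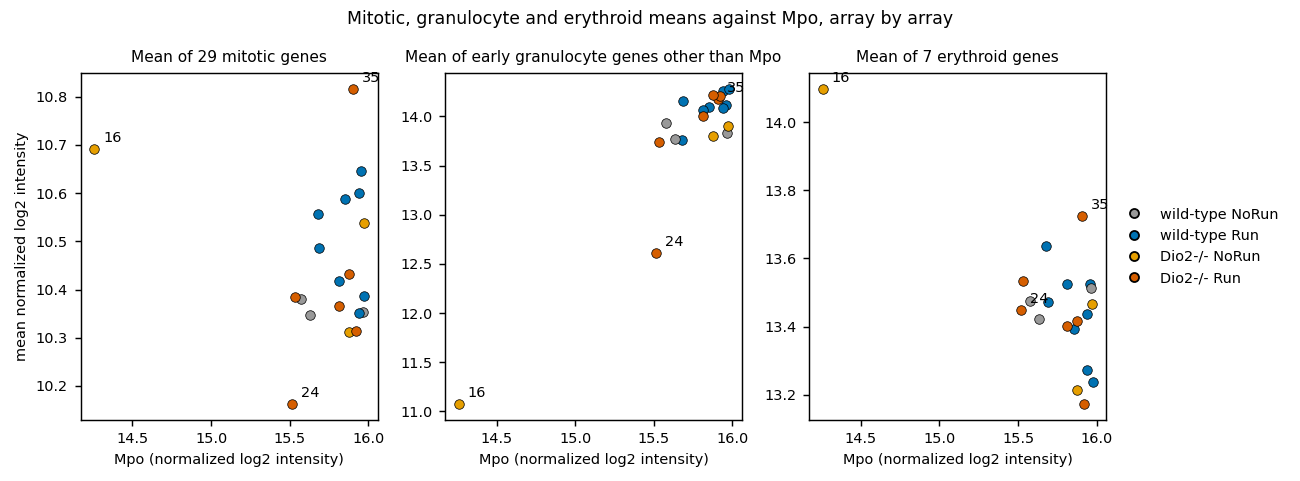
Mean normalized log2 intensity (y axis) of the 29 mitotic genes, of 4 early granulocyte genes and of 7 erythroid genes against Mpo (x axis) on the 20 arrays, coloured by group, with 3 arrays labelled by number. Dio2-/- NoRun 16 has the lowest Mpo (14.26) and lowest granulocyte mean and the highest erythroid mean, and Dio2-/- Run 24 the lowest mean of the mitotic genes (10.16).

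The slope of each probe on Mpo was fitted with the group means in the model. Of the 53 member probes 2 passed the adjusted threshold, against 18% of the 23147 other tested probes, and at an unadjusted P below 0.05 there were 0 positive and 6 negative (11.3%), against 16.9% and 16.6% of all probes. The median slope over 29 members was -0.075 against -0.0074 over all probes. The 2 called were Aurka, with a slope of -0.62 (SE 0.17, adjusted P = 0.017 in limma), and the dim Prc1 probe, with -0.94 (SE 0.24, adjusted P = 0.0117 in limma), both highest on Dio2-/- NoRun 16. Without Dio2-/- NoRun 16, no member probe was called, and without it and Dio2-/- Run 24 none was called either, as none of all probes was (0%). In those 18 arrays Aurka had a slope of 0.28 (SE 0.41), 17 of 29 members had a positive slope, the median was 0.20, and at an unadjusted P below 0.05 there were 0 positive and 1 negative (1.89%), against 4.48% and 5.17% of all probes.

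Against the mean of 7 erythroid genes, 27 of 29 members had a positive slope, with a median of 0.46 per log2 unit against 0.021 over all probes, and 1 passed the adjusted threshold, as 3.19% of all probes did. Without the 2 arrays with low granulocyte signals, 27 of 29 were again positive, with a median of 0.52 against -0.028 over all probes. None of the 29 was called there, where 0.00432% of all probes were. Against the mean of 10 skeletal muscle genes, 23 of 29 had a negative slope, with a median of -0.12 against -0.017 over all probes. Over the 18 arrays without those 2, the late granulocyte mean gave 25 of 29 positive slopes (median 0.84 against 0.115 over all probes). The early granulocyte mean other than Mpo gave 22 of 29 (0.18 against 0.044), and the B lineage mean 20 of 29 (0.14 against 0.0027). With all 20 arrays these were 12 (median -0.0085), 16 (0.0088) and 12 (-0.025) of 29. The medians over all probes were then -0.0074, -0.0058 and -0.0021. The part of red cell precursors, of granulocytes or of muscle in the mitotic signal was not tested.

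The members varied together within the groups. Over the 406 pairs of members, the correlation of deviations from the group means had a median of 0.32 over 20 arrays, and 81.8% of pairs were positive. Without Dio2-/- NoRun 16 and Dio2-/- Run 24, the median was 0.32 over 18 arrays. Aurkb (0.82), Cdk1 (0.81), Nusap1 (0.80) and Spc25 (0.80) followed the mean of the other members most closely, and Kif22 (0.086) and Kif23 (-0.069) least. These arrays share chips and normalization, so that the values describe the arrays and are no test.

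Outside the members, the gene most like their mean over 20 arrays was Dlgap5 (Pearson r 0.87), a spindle protein, followed by Orc1, Gclm, Gch1, Hace1, Rec114, Trim59, Olfr361, Psip1 and Gm12657 (0.87 to 0.82). Over 18 arrays, Dlgap5 again led (0.88), followed by Riok3, Vrk1, Ppil3, Rec114, Eif4enif1, Ndc1, Cd163, Ccp110 and Parp2 (0.86 to 0.84). The median r with the member mean was 0.56 for 24 other spindle and cytokinesis genes, 0.50 for 24 other kinetochore and checkpoint genes, 0.48 for 21 S phase genes and 0.48 for 7 erythroid genes. It was -0.085 for the early and -0.11 for the late granulocyte genes, -0.23 for 10 cartilage genes and -0.28 for 10 skeletal muscle genes. Over all 12281 other genes it was -0.045. Over the 18 arrays the early and late granulocyte genes both had 0.21, the erythroid genes 0.50 and the S phase genes 0.60. Cartilage genes had -0.24 and skeletal muscle genes -0.35 there, against -0.020 over all other genes.

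The neighbouring pathway lists had no gene past the adjusted threshold for running in the wild type. Of 24 other kinetochore and checkpoint genes 20 were higher in Run, with a median of 0.19, and the smallest P-values were those of Ska3 (0.57, a subunit of the complex that follows microtubule ends), Cenpp (0.55) and the checkpoint gene Mad2l1 (0.48). Of 21 S phase genes 15 were higher, with a median of 0.12, led by the replication licensing factor Cdt1 (0.65, adjusted P = 0.0898 in limma), Rrm1 (-0.42) and Lig1 (0.47). Of 24 other spindle and cytokinesis genes 16 were higher, with Depdc1b (0.38), Sgo2a (0.48) and Gtse1 (0.34) at the smallest P-values. Of 16 condensin and cohesin genes 11 were higher, with Ncapd3 at 0.33. The Cdk inhibitors and related brakes were 4 higher and 6 lower of 10, with a median of -0.074. The early granulocyte genes had a median of 0.23 and the erythroid genes of 0.097 in the same comparison, where cartilage genes had -0.32 and muscle genes -0.24. The mean of the late granulocyte genes overlapped, with 14.56 to 14.64 on the wild-type NoRun and 14.5 to 14.76 on the wild-type Run arrays. The part of these cells and tissues in the mitotic values was not tested.

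Probes of a gene did not always agree. Of the 16 members with more than 1 tested probe, the additional probes of Birc5, Kif4, Spc25 and Cdca3 had r between 0.76 and 0.93 with the brightest over 20 arrays. Those of Bub1b, Cdca8, Cenpa, Prc1, Anln and Cenpf had r between 0.29 and 0.67. The additional probes of Top2a (r -0.10 and -0.30), Kif23 (-0.36, 0.0074 and -0.48), Spc24 (-0.074) and Nusap1 (0.0052) did not follow it. Those of Melk (0.046 and 0.11) and Cdc20 (0.13, 0.24 and 0.29) followed it little. A value for these genes therefore holds for the probe given.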

How the data were processed

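Each of 20 samples was 1 Illumina MouseWG-6 v2 array. The authors deposited mean probe intensity values on a linear scale that were not normalized, with a detection P-value for each. The authors also deposited a table of normalized log2 values, used here only as an alternative. GenomeStudio is named in the submitters' processing notes, and how that table was normalized is not stated in the sources at hand. From the intensities, background was corrected from the detection P-values and arrays were quantile-normalized with neqc (offset 16) of limma 3.58.1 in R 4.3.3, which returns log2 levels. A probe entered the tests if at least 3 arrays detected it (P below 0.05).

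The genotype effect was fitted with limma on genotype and running, and the other 5 contrasts on 4 group means that share the estimate of spread. Slopes on Mpo were fitted beside the group means. P-values were adjusted by Benjamini-Hochberg across every probe tested, and 0.05 was the threshold. A gene is given by its brightest tested probe (highest mean level), and counts are over all tested member probes. Values in every sample are given for a fixed set of members and for the member probe with the smallest P in each contrast. Ccna2, near background, is given by its detection instead. Array values of Cdca8, Aurka, Melk, Ube2c, Tpx2, Spc25 and Nusap1 are given outside that rule. Of the other lists, the genes past the threshold are given or, with none, those with the smallest P. Symbols are those of the platform annotation (34885 of 45281 probes with 1 symbol, 18 with several and 10378 with none listed); 34807 were found in the RefSeq table. The fits were tested on simulated data. Members, gene lists and tests were chosen with earlier results of these data known. Alternatives were other background corrections, normalizations, detection filters, weights and chip blocks, and arrays left out. Precision is limited by the small number of arrays and, for dim probes, by background.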

Additional observations from a re-analysis of the deposited data

Results flagged for a closer look

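Of 70 sets of values examined in the groups of 6 and 8 arrays (the 29 members, their mean and 5 early granulocyte genes), 8 held a lone array far from the others. Chance gives about 1 in 20 for 1 set alone. The sets share arrays and their genes vary together, so that the count of 8 cannot be set against that rate. On Dio2-/- Run 35, Bub1b read 11.98 (others 11.42 to 11.63), Plk1 11.87 (others 11.29 to 11.47) and Kif2c, the microtubule-depolymerizing motor, 11.55 (others 11.37 to 11.42), each the high array of the 6 Dio2-/- Run arrays. On Dio2-/- Run 24, Melk read 5.69 (others 6.83 to 7.43), and so low a place was also taken by Elane at 13.55 (others 14.75 to 15.40), Ctsg at 12.92 (others 14.24 to 14.56) and Ms4a3 at 10.13 (others 11.51 to 12.32). Prc1 read 13.62 on wild-type Run 23 against 13.16 to 13.34 on the other 7 wild-type Run arrays.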

How the results depend on the processing

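No paired analysis was possible because the groups share no replicate numbers. The counts of called member probes for genotype stayed at 0 outside array weights, and the median for running in the wild type stayed between 0.0926 and 0.239 outside the chip block. With array weights, whose estimation stopped before its tolerance was reached, called member probes of 53 numbered 9 for genotype in NoRun (14.6% of all probes called), 10 and 19 for running in wild-type and Dio2-/- mice (8.95% and 25.4% of all probes), 2 for the interaction (3.57%) and 0 for the slope on Mpo (0%), and the medians were -0.0146 (genotype in NoRun), 0.079 (running in Dio2-/- mice) and -0.0758 (interaction). Without background correction and with the authors' log2 values, 1 was called for running in the wild type (0.639% and 0.765% of all probes), and 0 for chip 3 against chip 1. The slope count was 1 with cyclic loess (9.28% of all probes), 4 with the authors' values (17.4%) and 4 with chip as a fixed block (17.3%), which also gave medians of -0.182 (genotype with running in the model) and 0.727 (running in the wild type). Without Dio2-/- NoRun 16 and Dio2-/- Run 24 together, the counts were 6 for running in the wild type (3.93% of all probes), 1 in Dio2-/- mice (0.92%) and 0 for the slope, whose median was 0.202. In place of Mpo, early and late granulocyte genes gave slope counts of 7 and 7 (30.8% and 28.9% of all probes), erythroid genes 1 (3.19%) with a median of 0.463, B lineage genes 0 (7.79%) and skeletal muscle genes 1 (8.62%). The slope of the dim Prc1 probe turned positive for the erythroid (1.23) and muscle (0.369) genes. The cause of these differences was not tested. Leaving out 1 array at a time gave counts of 0 to 6 for running in Dio2-/- mice (6 without Dio2-/- Run 24, where 11% of all probes were called). For running in the wild type the count was 0 to 1 (1 without Dio2-/- Run 24, 0.544% of all probes). It was 0 to 3 for the slope and 0 to 1 for the chips. The slope count was 0 without Dio2-/- NoRun 16, where 0% of all probes were called. It was 3 without wild-type Run 22 (17.3% of all probes), wild-type NoRun 14 (17.8%), wild-type NoRun 15 (22.5%) or Dio2-/- Run 24 (17%). The median slope lay between -0.107 and 0.31 (highest without Dio2-/- NoRun 16). Low signal limits Ccna2, Ect2, Ube2c and the dim probes.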
